A study of Mus musculus with 47 samples.

Results

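The 32 genes described here are known from sensory and autonomic neurons and their precursors. They were taken by gene symbol from a table of RNA-seq read counts that lists 38215 mouse genes. All 32 were found in the table, and all 32 were among the 20560 genes that passed the filter on low counts. The RNA came from cranial neural crest cells, an embryonic cell population that forms much of the face, dissected from mouse embryos and collected by FACS in 47 libraries of 16 groups. At E10.5 there were Ezh2cKO groups, a conditional knockout of the Polycomb enzyme gene Ezh2, of 4 subpopulations: maxillary (Mx), frontonasal (FNP), mandibular (Md) and second-arch (PA2) crest, with 3 libraries each. Mandibular crest of genotype HoxA2OE, with 3 libraries, was collected at E10.5, and PA2 of genotypes Hoxa2TempMut and Control, with 3 libraries each, at E11.5. The wild-type groups, labelled WT, were crest progenitors at E8.5 and the 4 subpopulations at both later stages, with 3 libraries per group but 2 in Mx at E10.5. No source used here names the Cre line that deleted Ezh2, the label used for sorting, or what the Control embryos of the Hoxa2 experiment carried. The labels do not say whether libraries of a group came from separate embryos, so the p-values measure only the spread between libraries.

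Cranial sensory neurons arise from the neural crest and from ectodermal placodes, and the neurons of the cranial parasympathetic ganglia arise from the crest. The proneural basic helix-loop-helix factors Neurog1 and Neurog2 start the sensory neuron programme, and Neurod1 and Neurod4 act after them. The homeodomain factors Pou4f1 and Isl1 then define sensory neurons in general, while Runx1, Runx3, Tlx3 and Prrxl1 mark or specify subtypes, and Phox2a and Ret belong to the autonomic programme. The remaining genes encode neurotrophin receptors and other membrane proteins, proteins of the neuronal cytoskeleton and growth cone, RNA-binding proteins and proteins of synaptic release. Ezh2 is the catalytic subunit of Polycomb repressive complex 2, which places the H3K27me3 mark on silent developmental genes, many of them with promoters rich in CG dinucleotides.

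Promoter windows of 300 bases, from 250 before to 50 after an annotated start, were taken from RefSeq on GRCm38.p6, the genome build of the counts. They matched 25 of the 32 genes, with 35 windows. No window was found for Nefm, Ntrk3, Stmn2, Snap25, Nefl, Ret and Gap43. The 5 windows printed here belong to genes described below. In Neurod1, Pou4f1 and Elavl3 the capitals mark E boxes, the sites that proneural factors can bind. The search, on both strands, took 3 forms of E box. The first was CAGATG. The second was CATATG. The third was CAGCTG. In the 2 Runx3 windows, at separate starts, the capitals mark each CG. All are printed 5′ to 3′ on the strand of the gene.
Neurod1, chr2:79456587-79456886, minus strand: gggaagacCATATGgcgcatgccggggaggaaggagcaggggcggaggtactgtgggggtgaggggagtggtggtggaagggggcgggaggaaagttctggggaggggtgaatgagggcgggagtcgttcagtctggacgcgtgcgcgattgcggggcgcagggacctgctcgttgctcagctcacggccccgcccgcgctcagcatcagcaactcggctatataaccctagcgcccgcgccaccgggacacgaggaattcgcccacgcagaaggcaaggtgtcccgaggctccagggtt
Pou4f1, chr14:104467950-104468249, minus strand: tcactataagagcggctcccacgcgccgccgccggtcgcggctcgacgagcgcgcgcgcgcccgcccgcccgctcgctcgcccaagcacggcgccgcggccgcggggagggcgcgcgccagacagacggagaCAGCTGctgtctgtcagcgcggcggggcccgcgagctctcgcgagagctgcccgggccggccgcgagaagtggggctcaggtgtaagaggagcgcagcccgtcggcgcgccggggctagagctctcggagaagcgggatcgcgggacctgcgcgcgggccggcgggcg
Elavl3, chr9:22051974-22052273, minus strand: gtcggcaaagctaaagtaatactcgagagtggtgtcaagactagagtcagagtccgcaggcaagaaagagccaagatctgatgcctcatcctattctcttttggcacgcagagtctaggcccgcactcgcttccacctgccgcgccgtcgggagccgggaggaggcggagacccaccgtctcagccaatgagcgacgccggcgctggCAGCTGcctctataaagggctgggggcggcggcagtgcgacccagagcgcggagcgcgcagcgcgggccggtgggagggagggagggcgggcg
Runx3, upstream start, chr4:135120395-135120694, plus strand: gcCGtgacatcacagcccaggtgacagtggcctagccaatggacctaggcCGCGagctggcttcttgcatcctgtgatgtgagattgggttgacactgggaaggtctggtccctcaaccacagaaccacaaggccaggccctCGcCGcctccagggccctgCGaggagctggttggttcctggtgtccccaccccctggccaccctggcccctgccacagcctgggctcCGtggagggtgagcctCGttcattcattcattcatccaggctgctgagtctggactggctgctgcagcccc
Runx3, downstream start, chr4:135152295-135152594, plus strand: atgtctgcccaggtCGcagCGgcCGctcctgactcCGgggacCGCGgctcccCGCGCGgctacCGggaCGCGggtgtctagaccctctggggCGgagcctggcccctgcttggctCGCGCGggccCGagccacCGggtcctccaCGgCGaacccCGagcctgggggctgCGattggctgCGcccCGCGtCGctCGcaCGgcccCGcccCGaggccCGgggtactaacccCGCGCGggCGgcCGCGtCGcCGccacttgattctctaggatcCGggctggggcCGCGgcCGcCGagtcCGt

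An E box of the 3 kinds stood in 37.1% of the 35 windows and in 33.4% of all 32851 promoter windows of the table. CAGCTG was in 25.7% of the windows, against 16.3% of all windows, and CAGATG in 14.3%, against 17.2%. These are shares of windows, and a gene with several starts, such as Elavl4, counts once per window. For the element bound by the neuronal gene repressor REST, its left core CAGCACC was in 2.86% of the windows, against 7.14% of all windows. Its right core GGACAGC was also in 2.86%, against 6.56%, and both of these matches were in Tubb3. The median number of CG dinucleotides was 11 per window for the neuron genes and 7 for all windows. The downstream Runx3 start had 45 CG and its upstream start 8, while Pou4f1 had 57, the highest number among the 35 windows.

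The libraries held 18.82 to 49.81 M counts, with a median of 30.61 M, where 1 M is 1e+06. Levels are given as counts per M of the library total after TMM scaling (CPM), and between genes they are compared only per kilobase of exon. Ezh2 itself was at 154, 151 and 129 CPM in the Mx Ezh2cKO libraries and at 359 and 365 CPM in the Mx wild-type libraries at E10.5. In all 12 Ezh2cKO libraries it was below every wild-type library, and no source used here names the deleted exons. Mitochondrial genes held 11.46% to 45.91% of the counts, with the highest share in replicate 1 of HoxA2OE. In Mx Ezh2cKO, replicate 3 stood apart from the other two for the neuron genes, which is taken up with that comparison. Lists of markers of other cell types were read beside the neuron genes. That of crest mesenchyme summed to 1579 to 2348 CPM in the E10.5 wild-type libraries.

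**Figure D1:**
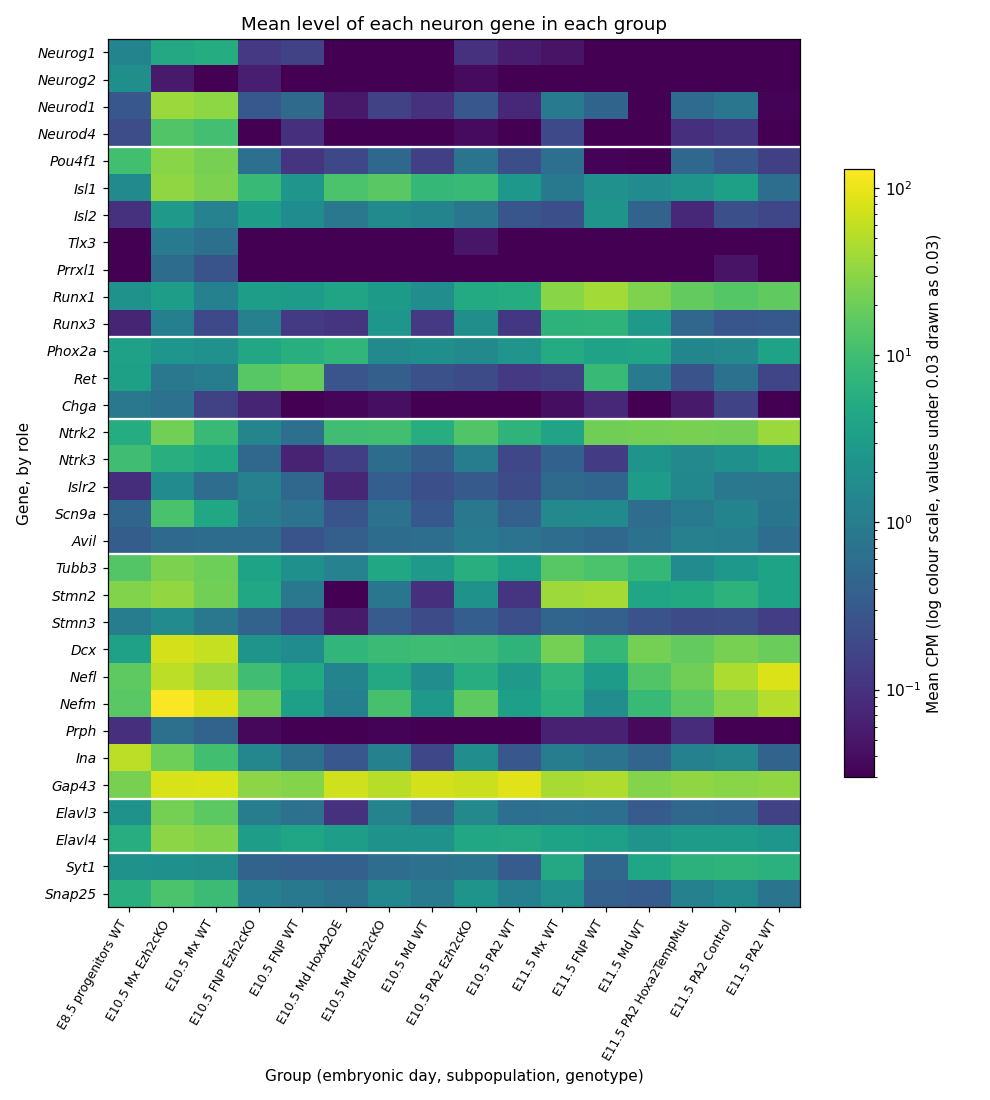
Mean level of each of the 32 genes (rows, by role) in each of the 16 groups (columns), as CPM on a log colour scale with values under 0.03 drawn as 0.03. Both Mx columns at E10.5 are bright across the proneural, sensory and cytoskeletal rows, and 15 genes had their highest mean in Mx Ezh2cKO.

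The question of the first comparison was how the subpopulations of the crest differed at E10.5. In wild-type Mx, 24 of the 32 neuron genes were called higher than in FNP, Md and PA2 together, and 1 gene, Runx1, was called lower. A gene is called here when its edgeR quasi-likelihood p, adjusted by Benjamini-Hochberg over all 20560 genes, is under 0.05. Over all genes tested, 4.37% were called higher and 2.91% lower. The 32 genes were chosen with earlier results of these data known, so their share beside that of all genes is a description and no independent test, here and below. The median log2 fold change of the 32 genes was 3.30, or 3.02 with the 5 genes that were listed at 0 in a whole group set to a floor of 3 counts, against 0.00 over all genes tested. The summed level of the 32 genes was 522 and 467 CPM in the 2 Mx libraries, 81.1, 78.3 and 85.4 in FNP, 121, 108 and 117 in Md and 139, 127 and 124 in PA2. In 23 of the 24 genes called higher, both Mx libraries stood above all 9 others. How often this held over all genes tested was not counted. Genes already called higher tend to stand apart, so this count only describes the libraries. In bulk samples, more cells of a type and more RNA per cell cannot be told apart.

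Of the 4 proneural factors, 3 rose in Mx. Neurod1 had 34.3 and 27.4 CPM in the Mx libraries and 0 to 0.949 CPM over the 9 libraries of FNP, Md and PA2. Its log2 fold change was 7.53 ± 0.43 (SE, edgeR adjusted p = 3.16e-17). Both Mx libraries were far above all others, of which the highest was from FNP. Neurod4 had 12.7 and 8.87 CPM in Mx against 0 to 0.277 CPM elsewhere, with a log2 fold change of 7.86 ± 0.51 (edgeR adjusted p = 2.55e-14). Neurog1, which acts earliest, had 6.33 and 4.50 CPM in Mx against 0 to 0.205 CPM, with a log2 fold change of 6.56 ± 0.41 (edgeR adjusted p = 1.28e-13). Its close relative Neurog2 was at 0.0266 and 0.0315 CPM in Mx and listed at 0 in the other 9 libraries, and was not called. The 2 neurogenins, which can start the same programme, were thus at unlike levels in these cells, Neurog1 at 3.26 ± 0.780 and Neurog2 at 0.0130 ± 0.00155 CPM per kilobase (SD, n = 2).

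Of the 7 sensory transcription factors, Pou4f1, Isl1, Tlx3 and Prrxl1 rose in Mx, Runx1 fell, and Isl2 and Runx3 did not pass the test. Pou4f1 had 26.8 and 20.2 CPM in Mx against 0 to 0.382 CPM elsewhere, a log2 fold change of 7.22 ± 0.37 (edgeR adjusted p = 7.49e-19). Isl1 had 26.6 and 23.3 CPM in Mx, 1.70, 2.70 and 2.64 in FNP, 6.45, 7.68 and 9.29 in Md and 1.63, 3.52 and 2.56 in PA2. Isl1 was thus present in every library outside Mx as well, with Md next to Mx, and its log2 fold change was 2.79 ± 0.31 (edgeR adjusted p = 3.45e-09). The subtype factors Tlx3 and Prrxl1 were low in absolute terms, with 0.585 and 0.724 CPM and 0.399 and 0.126 CPM in Mx. Elsewhere neither exceeded 0.0531 CPM, and Prrxl1 was no longer called without Mx replicate 1 (edgeR adjusted p = 0.131) or by DESeq2 (adjusted p = 0.1). Over all groups, both genes had their highest mean in Mx Ezh2cKO and the next in wild-type Mx at E10.5. Tlx3 and Prrxl1 thus passed the filter on low counts through Mx, so their calls here are not independent of that filter. Runx1 had 1.36 and 1.01 CPM in Mx, 3.48, 2.90 and 2.80 in FNP, 2.21, 1.86 and 1.33 in Md and 5.97, 4.78 and 5.11 in PA2, and its log2 fold change was -1.37 ± 0.26 (edgeR adjusted p = 0.000135). The Mx and Md libraries overlapped for Runx1, and those of PA2 were the highest.

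The autonomic genes gave another pattern. Ret, the receptor for ligands of the GDNF family, had 1.17 and 0.850 CPM in Mx, 21.3, 14.6 and 17.3 in FNP, 0.382, 0.289 and 0.0531 in Md and 0.0905, 0.126 and 0.147 in PA2. FNP was thus far above the rest and Mx came next, and Mx was lower than FNP alone by a log2 fold change of -4.12 ± 0.33. Phox2a, a homeodomain factor of autonomic and cranial motor neurons, had 2.95 and 1.26 CPM in Mx and 1.70 to 7.63 CPM elsewhere, also with FNP highest, and neither gene was called for Mx against the other 3 together. Chga, a protein of secretory granules, was at 0.186 and 0.126 CPM in Mx and at most 0.0791 CPM elsewhere. It was called with an edgeR adjusted p of 0.0402, which became 0.364 and 0.11 without Mx replicate 1 or 2. The call was also lost without FNP replicate 2 or 3, any Md library or PA2 replicate 2 or 3, at adjusted p-values of 0.0556 to 0.0647.

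Of the 5 receptors and other membrane or actin proteins, 3 rose in Mx. Ntrk3, the receptor TrkC of the neurotrophin NT-3, had 4.31 and 4.88 CPM in Mx against 0.0395 to 0.424 CPM elsewhere, a log2 fold change of 4.75 ± 0.29 (edgeR adjusted p = 1.44e-16). Scn9a, the voltage-gated sodium channel Nav1.7 of nociceptors, had 4.60 and 4.28 CPM in Mx against 0.0849 to 0.888 CPM, a log2 fold change of 3.32 ± 0.32 (edgeR adjusted p = 6.63e-11). For both genes the Mx libraries stood clear of all others. Ntrk2, the BDNF receptor TrkB, was close in 3 subpopulations, with 8.24 and 8.90 CPM in Mx, 4.84, 6.44 and 5.36 in Md and 7.69, 6.84 and 6.29 in PA2, and low in FNP at 0.593, 0.683 and 0.716 CPM. Its log2 fold change of 1.53 ± 0.21 (edgeR adjusted p = 3.07e-07) therefore came with a difference from FNP of 3.67 ± 0.30, from Md of 0.63 ± 0.24 and from PA2 of 0.30 ± 0.24, of which only that from FNP was called. Islr2 and Avil were under 1 CPM in all E10.5 wild-type libraries and were not called.

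All 9 genes of the cytoskeleton and growth cone rose in Mx. Stmn2, a microtubule regulator of growing axons, had 21.4 and 22.2 CPM in Mx, 1.03, 0.581 and 0.944 in FNP, 0.0849, 0.0413 and 0.159 in Md and 0.0905, 0.0839 and 0.147 in PA2, a log2 fold change of 6.72 ± 0.26 (edgeR adjusted p = 1.49e-22). Outside Mx it was highest in FNP. Nefm, the medium neurofilament chain, had 85.6 and 80.6 CPM in Mx against 2.37 to 4.17 CPM, a log2 fold change of 4.71 ± 0.18 (edgeR adjusted p = 8.49e-23). Nefl, the light chain, had 41.9 and 33.7 CPM against 1.59 to 5.38 CPM, a log2 fold change of 3.69 ± 0.18 (edgeR adjusted p = 2.09e-19). The 2 neurofilament genes overlap on chromosome 14 on opposite strands and the libraries kept no strand, so their counts may not be fully separate. This limit holds for every comparison below. Ina, the neurofilament protein alpha-internexin, had 9.89 and 10.9 CPM in Mx against 0.0531 to 1.15 CPM, a log2 fold change of 4.97 ± 0.35 (edgeR adjusted p = 1.91e-14). Tubb3, the neuronal beta-tubulin, had 20.95 and 20.2 CPM in Mx against 1.34 to 3.69 CPM, a log2 fold change of 2.93 ± 0.19 (edgeR adjusted p = 1.68e-15). For Ina and Tubb3 both Mx libraries again stood above all others. Prph, the filament protein peripherin, was at 0.292 and 0.566 CPM in Mx and was listed at 0 in the other 9 libraries. Gap43, a growth cone protein, was high in every E10.5 subpopulation, with 81.5 and 82.9 CPM in Mx and 91.3, 83.95 and 83.2 in PA2, and its log2 fold change of 0.56 ± 0.12 was the smallest of the 24.

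Elavl3 and Elavl4, neuronal RNA-binding proteins, rose as well. Elavl3 had 18.2 and 13.6 CPM in Mx against 0.330 to 0.909 CPM elsewhere, a log2 fold change of 4.72 ± 0.27 (edgeR adjusted p = 1.58e-17), and Elavl4 had 28.7 and 24.8 CPM against 1.98 to 4.99 CPM, a log2 fold change of 2.92 ± 0.19 (edgeR adjusted p = 1.38e-15). Genes of synaptic release rose too. Snap25, a membrane fusion protein, had 9.65 and 9.09 CPM in Mx against 0.547 to 1.54 CPM, and Syt1, its calcium sensor partner, 2.02 and 1.76 CPM against 0.246 to 0.796 CPM. Their log2 fold changes were 3.27 ± 0.28 and 2.04 ± 0.27 (edgeR adjusted p = 3.48e-12 and 1.59e-07). Per kilobase of exon, the level in Mx was highest for Gap43 at 53.98 ± 0.680 CPM per kilobase (SD, n = 2). Nefm followed at 14.4 ± 0.614, and Neurod1, Nefl and Tubb3 were among the next at 11.3 ± 1.79, 11.2 ± 1.73 and 11.01 ± 0.297 CPM per kilobase, which do not differ beyond their spread. Set against FNP, Md and PA2 singly, 24, 21 and 23 of the 32 genes were called higher in Mx, where 7.69%, 3.97% and 4.62% of all genes were. Each time 20 of the 32 were called higher, and the share of all genes called each time was not counted.

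**Figure D2:**
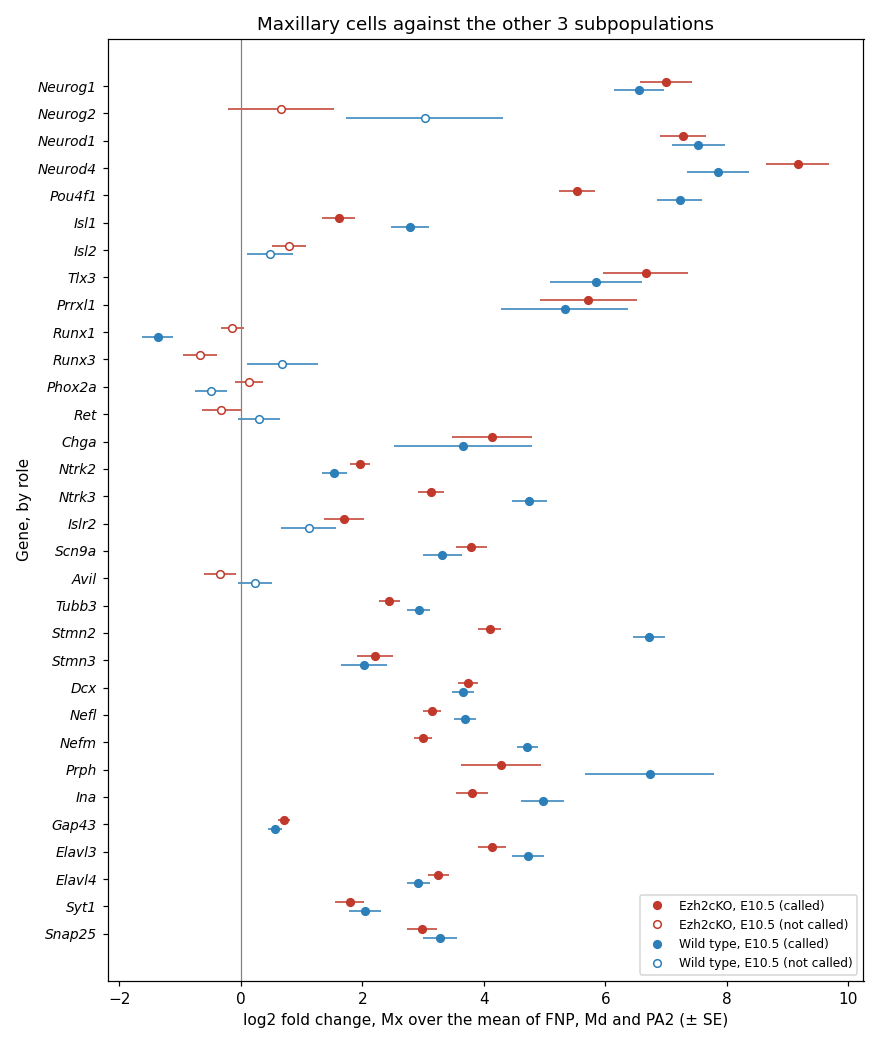
Log2 fold change, with its standard error, of each gene in Mx over the mean of FNP, Md and PA2 at E10.5, in Ezh2cKO cells (red, upper point of each pair) and wild-type cells (blue). Filled points are called, and most genes lie right of 0 in both genotypes, while Runx1 lies left of 0 in the wild type. Fitted values of genes listed at 0 in a whole group, such as Prph in the wild type, depend on the fit's prior count.

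Lists of related genes, also chosen with earlier results of these data known, were read in the same comparison. Of 18 tested genes on a list of other sensory neuron genes, 13 rose in Mx. The helix-loop-helix factor Nhlh1 had 17.4 ± 0.625 CPM in Mx and 0.349 ± 0.143, 0.0554 ± 0.0629 and 0.0280 ± 0.0484 CPM in FNP, Md and PA2 (SD, n = 2 in Mx and 3 elsewhere), and Onecut1 had 5.72 ± 1.28 CPM in Mx. Slc17a6, a vesicular glutamate transporter, had 1.92 ± 0.139 CPM in Mx. Of 8 other autonomic neuron genes, 5 rose. They included Tlx2, Chgb and Gfra2 at 1.13 ± 0.213, 1.15 ± 0.0264 and 8.56 ± 0.940 CPM in Mx, while Th and Dbh, which encode enzymes of noradrenaline synthesis, were at 0.0423 ± 0.0154 CPM and listed at 0 there. Of 14 other pan-neuronal genes, 10 rose, among them Stmn4, Rbfox3 and Syp at 1.60 ± 0.0476, 2.19 ± 0.474 and 5.21 ± 0.380 CPM. Of 9 genes of REST and its partners, edgeR called 0 in either direction, and 2 had an unadjusted p under 0.05, both lower in Mx. Rest itself was at 262 ± 2.71 CPM in Mx.

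Markers of other cell types were read as well, and their lists did not all run with the neuron genes. Those of epithelium, endothelium, leukocytes and cranial muscle are not described for this comparison. Of 10 genes of Schwann cell precursors and satellite glia, 7 rose in Mx, and the list summed to 126 and 105 CPM in the Mx libraries, against 12.3 to 34.6 CPM in the other 9. Sox10 and Fabp7 were at 26.3 ± 6.39 and 34.6 ± 3.94 CPM in Mx, against at most 3.68 ± 0.897 CPM for Sox10, in PA2, and 1.98 ± 0.189 CPM for Fabp7, in FNP. Of 10 cranial placode regulators, 5 rose, with sums of 604 to 613 CPM in Mx and 220.4 to 454 CPM elsewhere, but Foxi3 was listed at 0 in Mx and Pax2 and Pax8 were near 0. Of 8 erythroid genes, 4 rose, but the sums overlapped, with 337 and 405 CPM in Mx and 25.5 to 424 CPM elsewhere. The part that cells of these kinds play in the levels of the neuron genes was not tested. The central nervous system list summed to 0.160 and 0.0944 CPM in the Mx libraries, with up to 9 of its 12 genes at 0 in a library, and to 0.330 to 2.17 CPM in the other 9.

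Between E10.5 and E11.5 most of the neuron genes fell in Mx. At E11.5, 21 of the 32 were called lower than at E10.5 and 5 higher, where 18.3% and 20.0% of all genes tested were called. The median log2 fold change of the 32 was -2.25, against 0.01 over all genes. The summed level was 209, 187 and 195 CPM at E11.5 and 522 and 467 CPM at E10.5. The Mx wild-type libraries at E10.5 also serve in the comparison of subpopulations and in that with Mx Ezh2cKO, so these results share samples.

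The genes that act early in neurogenesis fell to low levels in Mx, at most 2.10 CPM in any E11.5 library. At E11.5 Neurod1 was at 0.792, 0 and 1.996 CPM, with a log2 fold change of -5.10 ± 0.51 (edgeR adjusted p = 1.08e-10), and all 3 libraries were below both libraries of E10.5. Neurog1 was at 0.141, 0 and 0 CPM and Neurod4 at 0.424, 0 and 0.140 CPM, with log2 fold changes of -6.63 ± 0.57 and -5.77 ± 0.59 (edgeR adjusted p = 8.72e-11 and 1.02e-09). Pou4f1 was at 0.679, 0.0887 and 1.16 CPM and Isl1 at 0.537, 0.0592 and 2.10 CPM, with log2 fold changes of -5.23 ± 0.45 and -4.87 ± 0.48 (edgeR adjusted p = 1.68e-12 and 6.59e-11). Replicate 2 was the lowest of the 3 libraries for Neurod1, Pou4f1 and Isl1. Tlx3 and Prrxl1 each had a single count, in replicate 3, over the 3 libraries.

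The later genes fell by unlike amounts. Nefm was at 7.21, 3.52 and 7.95 CPM at E11.5, a log2 fold change of -3.74 ± 0.24, Ina at 1.13, 0.680 and 1.23 CPM, a change of -3.37 ± 0.41, and Nefl at 8.54, 5.74 and 8.19 CPM, a change of -2.34 ± 0.23 (edgeR adjusted p = 7.84e-16, 1.44e-08 and 6.34e-11). Elavl3 was at 0.933, 0.177 and 0.910 CPM and Elavl4 at 3.62, 2.99 and 4.90 CPM, with log2 fold changes of -4.57 ± 0.37 and -2.81 ± 0.25 (edgeR adjusted p = 4.1e-13 and 8.46e-12). Replicate 2 was again the lowest E11.5 library for these 5 genes. Dcx, the microtubule protein doublecortin, kept a higher level at 25.6, 18.8 and 24.3 CPM, a log2 fold change of -1.45 ± 0.23 (edgeR adjusted p = 3.67e-06). Among the receptors, Ntrk3 was at 0.283, 0.266 and 0.665 CPM, Scn9a at 1.30, 0.947 and 2.38 CPM and Ntrk2 at 4.10, 2.22 and 5.46 CPM, with log2 fold changes of -3.53 ± 0.34, -1.54 ± 0.36 and -1.13 ± 0.24 (edgeR adjusted p = 3.57e-11, 0.000713 and 0.000251). Snap25 was at 1.84, 1.95 and 2.52 CPM and Ret at 0.0848, 0.148 and 0.210 CPM, with log2 fold changes of -2.16 ± 0.35 and -2.79 ± 0.47 (edgeR adjusted p = 3.37e-06 and 8.17e-06). In all of these genes the 3 libraries of E11.5 stood below both libraries of E10.5.

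In Mx 5 genes rose between these ages, and Tubb3 did not pass the test. Runx1 was at 29.3, 28.1 and 29.4 CPM at E11.5, a log2 fold change of 4.60 ± 0.28 (edgeR adjusted p = 1.37e-16), and Runx3 at 6.98, 5.65 and 7.53 CPM, against 0.319 and 0.0629 CPM at E10.5, a log2 fold change of 5.04 ± 0.45 (edgeR adjusted p = 5.39e-12). Both Runx factors specify sensory neuron subtypes and are also known from skeletal, epithelial and blood lineages. Stmn2 was at 41.6, 42.2 and 31.4 CPM, against 21.4 and 22.2 CPM, a log2 fold change of 0.82 ± 0.24 (edgeR adjusted p = 0.00717). Leaving out Mx E10.5 replicate 1 or 2 took the adjusted p of Stmn2 to 0.0744 or 0.0568. Syt1 was at 3.59, 4.91 and 5.74 CPM and Phox2a at 4.69, 5.35 and 5.25 CPM, with log2 fold changes of 1.32 ± 0.27 and 1.26 ± 0.30 (edgeR adjusted p = 0.000172 and 0.000896). Phox2a lost its call without Mx E10.5 replicate 2 (adjusted p = 0.117). Tubb3 was at 16.6, 14.8 and 13.1 CPM, a log2 fold change of -0.47 ± 0.24 (edgeR adjusted p = 0.118).

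Outside Mx the same interval looked different. In FNP 9 neuron genes rose and 6 fell, in Md 13 rose and 4 fell, and in PA2 10 rose and 4 fell. Of all genes tested, 22.7% were called higher and 20.0% lower in FNP, 21.3% and 17.0% in Md, and 21.3% and 18.1% in PA2. Stmn2 rose in all 3, to 39.5, 38.3 and 49.5 CPM in FNP, 4.13, 3.45 and 5.28 in Md and 5.001, 3.48 and 2.92 in PA2, with log2 fold changes of 5.64 ± 0.29, 5.51 ± 0.49 and 5.12 ± 0.48. In FNP this level was reached with Neurod1 at 0.373, 0.284 and 0.686 CPM and Pou4f1 at 0, 0.0258 and 0.0710 CPM. Ntrk2 also rose in all 3, to 19.5, 22.4 and 22.2 CPM in FNP, 20.97, 21.4 and 25.4 in Md and 35.8, 36.97 and 36.5 in PA2, with log2 fold changes of 4.99 ± 0.28, 2.02 ± 0.22 and 2.39 ± 0.22. All 3 libraries of each E11.5 group were above those of E10.5 for both genes.

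The neurofilament genes rose in Md and PA2 and fell in FNP. In PA2 Nefl was at 89.3, 70.4 and 94.01 CPM at E11.5 and 3.76, 2.48 and 2.16 CPM at E10.5, a log2 fold change of 4.91 ± 0.25 (edgeR adjusted p = 9.48e-19), and Nefm at 57.7, 42.5 and 55.04 CPM at E11.5, a log2 fold change of 3.92 ± 0.25 (edgeR adjusted p = 4.12e-16). These PA2 libraries had Pou4f1 at 0.217, 0.121 and 0.0964 CPM and Neurod1 at 0, 0 and 0.0964 CPM. In Md Nefl was at 11.3, 12.7 and 16.6 CPM, a log2 fold change of 2.88 ± 0.26, while in FNP it was at 2.98, 2.87 and 3.41 CPM, a change of -0.65 ± 0.24 (edgeR adjusted p = 5.71e-12 and 0.025). Nefm in FNP was at 1.89, 1.63 and 1.96 CPM at E11.5, a log2 fold change of -0.89 ± 0.27 (edgeR adjusted p = 0.00645, and 0.0567 without E10.5 replicate 3). The FNP call for Nefl was lost without either of 2 libraries at each age, with adjusted p-values of 0.0619 to 0.0902. The central nervous system list summed to 10.3, 7.58 and 10.4 CPM in PA2 at E11.5 and 0.724, 0.713 and 1.57 CPM at E10.5, and 3 of its 9 tested genes rose. Its part in the neurofilament levels was not tested. Islr2, an immunoglobulin-family protein of axons, was at 2.86, 2.73 and 3.55 CPM in Md at E11.5 and 0.212, 0.165 and 0.318 CPM at E10.5, a log2 fold change of 3.73 ± 0.48 (edgeR adjusted p = 4.18e-08).

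A test of the difference itself compared the change in Mx with the mean change in FNP, Md and PA2. It called 15 neuron genes lower in Mx and 1 higher, where 3.14% of all genes were called lower and 2.03% higher. Neuron genes with the lowest differences that were at least at 1 CPM were Ntrk3 at -6.01 ± 0.47, Nefm at -5.32 ± 0.28, Nefl at -4.72 ± 0.27, Stmn2 at -4.61 ± 0.37 and Ntrk2 at -4.27 ± 0.28 on the log2 scale (edgeR adjusted p = 1.83e-12, 4.87e-17, 2.65e-16, 4.39e-12 and 1.92e-14). Runx1 was the gene called higher, at 1.53 ± 0.30 (edgeR adjusted p = 0.000416), with log2 fold changes of 4.60 ± 0.28 in Mx, 3.72 ± 0.22 in FNP, 3.80 ± 0.23 in Md and 1.69 ± 0.21 in PA2. In Mx the glia list also fell, with 8 of 10 genes called lower at E11.5 and sums of 22.4, 30.03 and 23.4 CPM at E11.5 against 126 and 105 CPM at E10.5. Of 8 erythroid genes 6 fell, with sums of 36.9, 48.6 and 44.9 CPM at E11.5 and 337 and 405 CPM at E10.5. The part of these cells in the changes of the neuron genes was not tested.

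**Figure D3:**
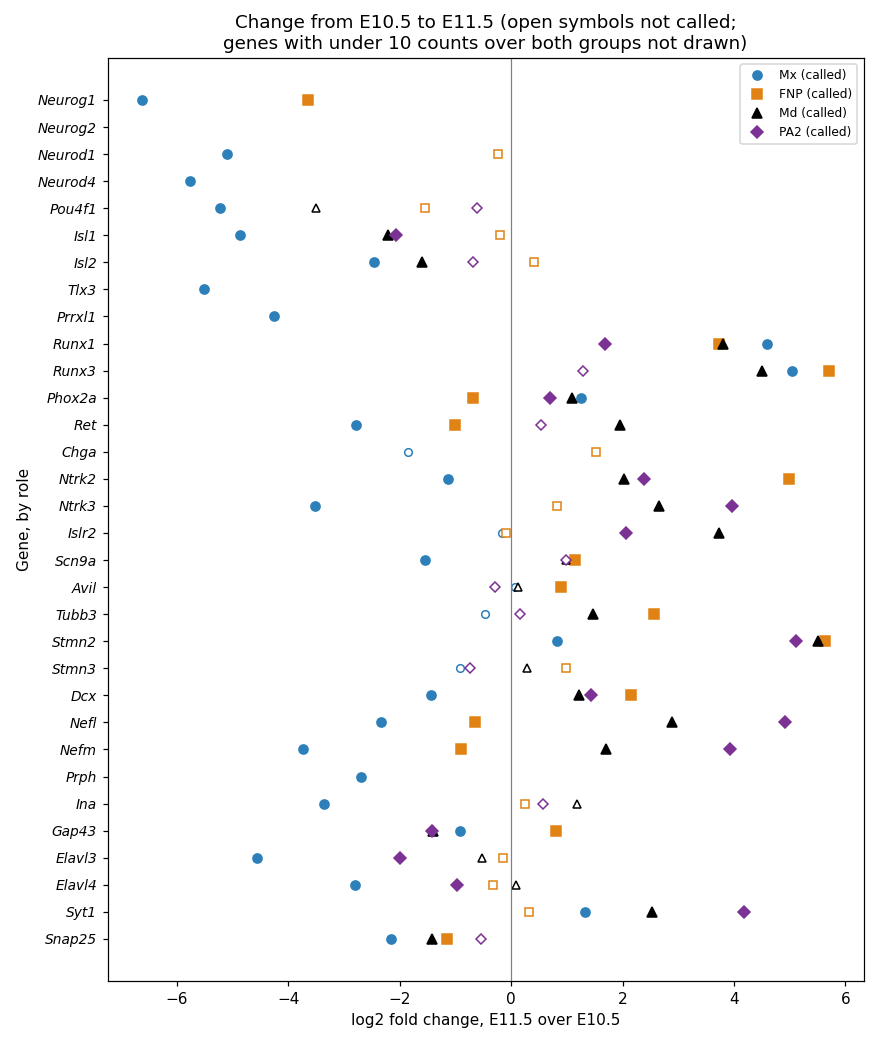
Log2 fold change of each gene at E11.5 over E10.5 in Mx (blue circles), FNP (orange squares), Md (black triangles) and PA2 (purple diamonds), wild type, with filled symbols for called genes. The Mx circles lie left of the other symbols for most genes, while Runx1 and Runx3 lie right of 0 in all 4 subpopulations, with Runx3 in PA2 not called.

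Mx was set against the other 3 again at E11.5. There 10 neuron genes were called higher and 5 lower, where 5.84% and 5.50% of all genes were called, and the median log2 fold change was 0.70, or 0.53 with the 6 genes listed at 0 in a whole group set to the floor. Snap25 had 1.84, 1.95 and 2.52 CPM in Mx against 0.207 to 1.03 CPM elsewhere, a log2 fold change of 2.16 ± 0.30 (edgeR adjusted p = 7.49e-07). Stmn2 was higher by 2.12 ± 0.17, with FNP and Mx at like levels above Md and PA2, and Runx3 by 1.89 ± 0.22 (edgeR adjusted p = 2.48e-13 and 1.21e-08). Ntrk2 was lower, with a log2 fold change of -2.74 ± 0.20, and every Mx library was below every other E11.5 wild-type library (edgeR adjusted p = 6.43e-14). Ret was lower by a log2 fold change of -2.98 ± 0.42, with FNP at 8.31, 9.99 and 8.12 CPM, and Nefl by -1.03 ± 0.18 (edgeR adjusted p = 6.4e-07 and 5.8e-05). Neurod1 and Pou4f1 were still called higher in Mx at under 1 CPM on average, with log2 fold changes of 3.90 ± 0.73 and 3.89 ± 0.67 (edgeR adjusted p = 0.00012 and 3e-05). Set against FNP, Md and PA2 singly, 8, 9 and 10 genes were called higher in Mx, where 8.43%, 4.23% and 6.60% of all genes were. Each time 2 genes, Snap25 and Pou4f1, were called higher, and the share of all genes called each time was not counted.

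The next question was what loss of Ezh2 did to these genes at E10.5. In Mx, Ezh2cKO cells had 5 of the 32 neuron genes called higher than wild-type cells and 0 called lower by edgeR, with 0 also at an unadjusted p under 0.05 and 0 by DESeq2, where 6.85% of all genes tested were called higher and 3.41% lower. The median log2 fold change of the 32 was 0.53, against -0.01 over all genes. Runx3 was at 1.07, 1.53 and 0.716 CPM in Ezh2cKO and 0.319 and 0.0629 CPM in wild type, a log2 fold change of 2.43 ± 0.50 (edgeR adjusted p = 0.000738). Runx1 was at 3.83, 4.20 and 1.88 CPM in Ezh2cKO and 1.36 and 1.01 CPM in wild type, a log2 fold change of 1.46 ± 0.29 (edgeR adjusted p = 0.000445). Ntrk2 was at 24.03, 24.7 and 17.7 CPM in Ezh2cKO and 8.24 and 8.90 CPM in wild type, a log2 fold change of 1.37 ± 0.24 (edgeR adjusted p = 8.74e-05). Replicate 3 was the lowest Ezh2cKO library for each of these 3 genes. Scn9a was at 13.4, 14.9 and 6.48 CPM in Ezh2cKO and 4.60 and 4.28 CPM in wild type, and Islr2 at 2.39, 1.49 and 1.17 CPM in Ezh2cKO and 0.745 and 0.472 CPM in wild type, with log2 fold changes of 1.38 ± 0.35 and 1.44 ± 0.46 (edgeR adjusted p = 0.00678 and 0.0345). In all 5 the 3 Ezh2cKO libraries were above both wild-type libraries.

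Neurod1, Pou4f1, Isl1, Stmn2 and Tubb3, all higher in wild-type Mx than elsewhere, did not pass this test. Neurod1 had 46.9, 47.9 and 16.02 CPM in Ezh2cKO and 34.3 and 27.4 CPM in wild type, a log2 fold change of 0.26 ± 0.42 (edgeR adjusted p = 0.804). In the 3 Ezh2cKO libraries Pou4f1 had 36.3, 38.3 and 12.6 CPM, Isl1 35.5, 45.7 and 14.6 CPM, Stmn2 39.5, 44.6 and 16.99 CPM and Tubb3 27.4, 32.4 and 15.4 CPM, against the wild-type values given above. Their log2 fold changes were 0.31 ± 0.36, 0.35 ± 0.39, 0.62 ± 0.24 and 0.28 ± 0.24 (edgeR adjusted p = 0.705, 0.684, 0.102 and 0.561). Neurog1 had 4.41, 6.52 and 3.39 CPM in Ezh2cKO and 6.33 and 4.50 CPM in wild type, so that the genotypes overlapped. For Neurod1, Pou4f1, Isl1, Stmn2 and Tubb3 the pattern in the libraries was the same: Ezh2cKO replicates 1 and 2 lay above both wild-type libraries and replicate 3 below both. The autonomic genes Ret and Phox2a had 1.20, 0.525 and 0.829 CPM and 3.09, 2.06 and 2.19 CPM in Ezh2cKO, with log2 fold changes of -0.25 ± 0.37 and 0.20 ± 0.31.

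Replicate 3 of Mx Ezh2cKO decided several of these calls. Of the 26 neuron genes whose mean in the other two libraries was at least 1 CPM, it was the lowest for 24, and its level was 46.4% of their mean at the median, with a range of 33.0% to 107%. The 32 genes summed to 738, 842 and 385 CPM in the 3 Ezh2cKO libraries. Without replicate 3, 14 genes were called higher instead of 5, the 5 above among them. The 9 added were Isl2, Chga, Ntrk3, Stmn2, Stmn3, Dcx, Nefl, Nefm and Ina, for example Nefl with a log2 fold change of 0.88 (edgeR adjusted p = 0.002) and Stmn2 with 0.95 (edgeR adjusted p = 0.00218). Neurod1, Pou4f1 and Isl1 were still not called, with log2 fold changes of 0.62, 0.67 and 0.70 (edgeR adjusted p = 0.442, 0.263 and 0.305). Leaving out another library lowered the count instead, to 3 without wild-type replicate 1, 2 without wild-type replicate 2 and 3 without Ezh2cKO replicate 2. Runx3 then had an adjusted p of 0.0728 without wild-type replicate 2, Scn9a had 0.0746 and 0.121 without wild-type replicate 1 or 2, and Islr2 had 0.0542 to 0.363 without any single library other than Ezh2cKO replicate 3.

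Of the 10 genes of the glia list, 4 were called lower in Mx Ezh2cKO than in wild type, and its sums were 78.8, 77.3 and 48.9 CPM in Ezh2cKO and 126 and 105 CPM in wild type. Replicate 3 was the lowest for this list too. Erbb3, a neuregulin receptor of glial precursors, was at 12.2 ± 4.34 CPM in Ezh2cKO (SD, n = 3) and 24.7 ± 3.02 CPM in wild type (SD, n = 2), a log2 fold change of -1.02 ± 0.21 (edgeR adjusted p = 0.000853). Of 18 other sensory neuron genes 4 rose, among them Onecut2 at 55.96 ± 10.9 CPM in Ezh2cKO and 20.5 ± 1.82 CPM in wild type, and Ebf2 at 156 ± 15.3 CPM in Ezh2cKO and 78.4 ± 4.42 CPM in wild type, with log2 fold changes of 1.45 ± 0.19 and 0.99 ± 0.18 (edgeR adjusted p = 8.35e-07 and 0.000154). Of 10 epithelial markers 4 rose, with sums of 9.61 to 10.9 CPM in Ezh2cKO and 3.02 to 4.60 CPM in wild type. What part the numbers of glial or epithelial cells play in the effects on the neuron genes was not tested.

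Ezh2 loss also raised neuron genes outside Mx, where most of them were low in wild type. In FNP 9 genes were called higher and 0 lower by edgeR, in Md 7 higher and 1 lower, and in PA2 9 higher and 0 lower. At an unadjusted p under 0.05, 0 genes were lower in FNP and 1 in PA2, and DESeq2 called 0 lower in either. Over all genes tested, 4.97% were called higher and 1.83% lower in FNP, 6.69% and 2.18% in Md, and 6.64% and 2.53% in PA2. Of the 32 genes, 15 rose in at least 1 of the 4 subpopulations and 17 in none. Over all genes tested, the shares that rose in at least 1 or in all 4 were not counted. Runx3 alone rose in all 4, and Ntrk2, Stmn2, Nefl and Nefm in 3 each. Of the 4 proneural factors edgeR and DESeq2 called 0 in any of them, and 1 was higher in FNP at an unadjusted p under 0.05. Neurod1, for example, was at 0.116 to 0.381 CPM over the 9 Ezh2cKO libraries of FNP, Md and PA2 and at 0 to 0.949 CPM over their 9 wild-type libraries. Of the 18 other sensory neuron genes, 4 rose in FNP, 4 in Md and 6 in PA2, and of the 14 other pan-neuronal genes 2, 4 and 5.

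Runx3 was at 1.14, 1.05 and 1.30 CPM in Ezh2cKO FNP, 2.89, 3.02 and 1.39 in Ezh2cKO Md and 1.67, 2.59 and 1.34 in Ezh2cKO PA2, against 0 to 0.210 CPM over the 9 wild-type libraries. Its log2 fold changes were 3.14 ± 0.49, 4.31 ± 0.49 and 3.91 ± 0.50 (edgeR adjusted p = 1.03e-05, 1.26e-08 and 2.13e-07). Isl1 was at 9.48, 9.47 and 6.65 CPM in Ezh2cKO FNP and 1.70, 2.70 and 2.64 CPM in wild-type FNP, and at 8.04, 7.50 and 10.8 CPM in Ezh2cKO PA2 and 1.63, 3.52 and 2.56 CPM in wild-type PA2, with log2 fold changes of 1.85 ± 0.41 and 1.77 ± 0.42 (edgeR adjusted p = 0.00196 and 0.00321). In Md, Isl1 did not pass the test, with a log2 fold change of 0.97 ± 0.37. Pou4f1 was called in FNP, at 0.392, 0.831 and 0.723 CPM in Ezh2cKO and 0.158, 0.103 and 0.0651 CPM in wild type, a log2 fold change of 2.57 ± 0.78 (edgeR adjusted p = 0.0352). That call was lost without any single wild-type library or without Ezh2cKO replicate 2 or 3, at adjusted p-values of 0.0701 to 0.14.

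Among the receptors and other membrane or actin proteins, Ntrk2 rose in Md and PA2, Ntrk3 in FNP and PA2, and Avil in FNP. In Ezh2cKO FNP, Ntrk3 and Avil were under 1 CPM on average. Ntrk2 was at 9.05 to 11.3 CPM over the 3 libraries of Ezh2cKO Md against 4.84, 6.44 and 5.36 in wild type, and at 12.5, 15.6 and 11.9 CPM in Ezh2cKO PA2 against 7.69, 6.84 and 6.29 in wild type. Its log2 fold changes were 0.89 ± 0.23 and 0.94 ± 0.22 (edgeR adjusted p = 0.00687 and 0.00274), and in Md the adjusted p was 0.0529 without wild-type replicate 1. Ntrk3 was at 0.910, 1.26 and 0.907 CPM in Ezh2cKO PA2 against 0.136, 0.210 and 0.197 in wild type, a log2 fold change of 2.47 ± 0.46 (edgeR adjusted p = 0.000192). The Ezh2cKO and wild-type libraries did not overlap for these genes in the groups named.

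The cytoskeletal genes gave some of the largest effects. Nefm was at 19.3, 20.4 and 20.99 CPM in Ezh2cKO FNP against 2.37, 3.59 and 4.17 in wild type, at 10.96, 12.9 and 10.00 CPM in Ezh2cKO Md against 2.80, 2.77 and 2.60 in wild type, and at 16.98, 19.6 and 12.3 CPM in Ezh2cKO PA2 against 3.62, 3.36 and 3.24 in wild type. Its log2 fold changes were 2.57 ± 0.24, 2.05 ± 0.26 and 2.26 ± 0.25 (edgeR adjusted p = 1.14e-10, 1.16e-07 and 6.66e-09). The genotypes did not overlap in any of the 3. Stmn2 was at 5.56, 4.41 and 3.22 CPM in Ezh2cKO FNP, 0.722, 0.812 and 0.872 in Ezh2cKO Md and 1.78, 2.55 and 2.14 in Ezh2cKO PA2, with log2 fold changes of 2.37 ± 0.31, 3.09 ± 0.67 and 4.30 ± 0.53 (edgeR adjusted p = 3.53e-07, 0.00129 and 1.23e-07). For both genes these levels stayed below those of wild-type Mx. Nefl rose by log2 fold changes of 1.05 ± 0.23, 1.35 ± 0.28 and 0.98 ± 0.25 in FNP, Md and PA2 (edgeR adjusted p = 0.0014, 0.000568 and 0.00832). In PA2 the call of Nefl was lost without wild-type replicate 2 or 3 or Ezh2cKO replicate 2, at adjusted p-values of 0.057 to 0.0745. Ina rose in Md and PA2 by 2.60 ± 0.70 and 2.63 ± 0.60 (edgeR adjusted p = 0.0109 and 0.0021). Tubb3 rose in FNP, at 4.31, 3.61 and 3.61 CPM in Ezh2cKO against 1.34, 2.49 and 2.25 in wild type, a log2 fold change of 0.91 ± 0.27 (edgeR adjusted p = 0.0259, 0.193 without wild-type replicate 1 and 0.121 without Ezh2cKO replicate 1). Gap43 was the single gene that fell, in Md, to 50.4, 53.1 and 55.4 CPM in Ezh2cKO, against 77.6, 65.7 and 75.1 in wild type, a log2 fold change of -0.46 ± 0.13 (edgeR adjusted p = 0.0178). Without wild-type replicate 3 the Md count was 5 instead of 8, and Gap43, Ina and Elavl3 were then not called. Gap43 also lost its call without wild-type replicate 1 or Ezh2cKO replicate 1 or 2, at adjusted p-values of 0.0531 to 0.0913, and Ina without wild-type replicate 2, at 0.0563.

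Elavl3 was called higher in Md and PA2 with log2 fold changes of 1.41 ± 0.46 and 1.31 ± 0.42 (edgeR adjusted p = 0.0474 and 0.0411). It was at 1.26, 1.20 and 1.39 CPM in Ezh2cKO Md against 0.679, 0.330 and 0.424 in wild type, and at 1.40, 1.67 and 1.63 CPM in Ezh2cKO PA2 against 0.679, 0.671 and 0.541 in wild type. In Md 5 of the 6 leave-one-out fits ended the call, at adjusted p-values of 0.0849 to 0.206, and in PA2 all 6 did, at adjusted p-values of 0.0536 to 0.138. Ret was high in FNP of both genotypes, at 14.8, 15.1 and 13.8 CPM in Ezh2cKO and 21.3, 14.6 and 17.3 CPM in wild type, a log2 fold change of -0.28 ± 0.23 (edgeR adjusted p = 0.584). A test of the difference between the effect in Mx and the mean effect in the other 3 called 2 genes, both with a smaller fold change in Mx, and 0 with a larger one (1 at an unadjusted p under 0.05 and 1 by DESeq2). They were Stmn2 at -2.63 ± 0.41 and Nefm at -1.72 ± 0.26 on the log2 scale (edgeR adjusted p = 0.000153 and 0.000144), where 0.243% of all genes tested were called lower and 0.141% higher. Both were also called without replicate 3 of Mx Ezh2cKO. Their wild-type level was far higher in Mx, so a smaller fold change there does not mean a smaller rise in CPM. Nefm had a mean of 124 CPM in Mx Ezh2cKO and 83.1 CPM in wild-type Mx. The central nervous system list summed to 1.73 to 3.46 CPM in the Ezh2cKO libraries of FNP, Md and PA2 and 0.330 to 2.17 CPM in their wild-type libraries, and its part was not tested.

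**Figure D4:**
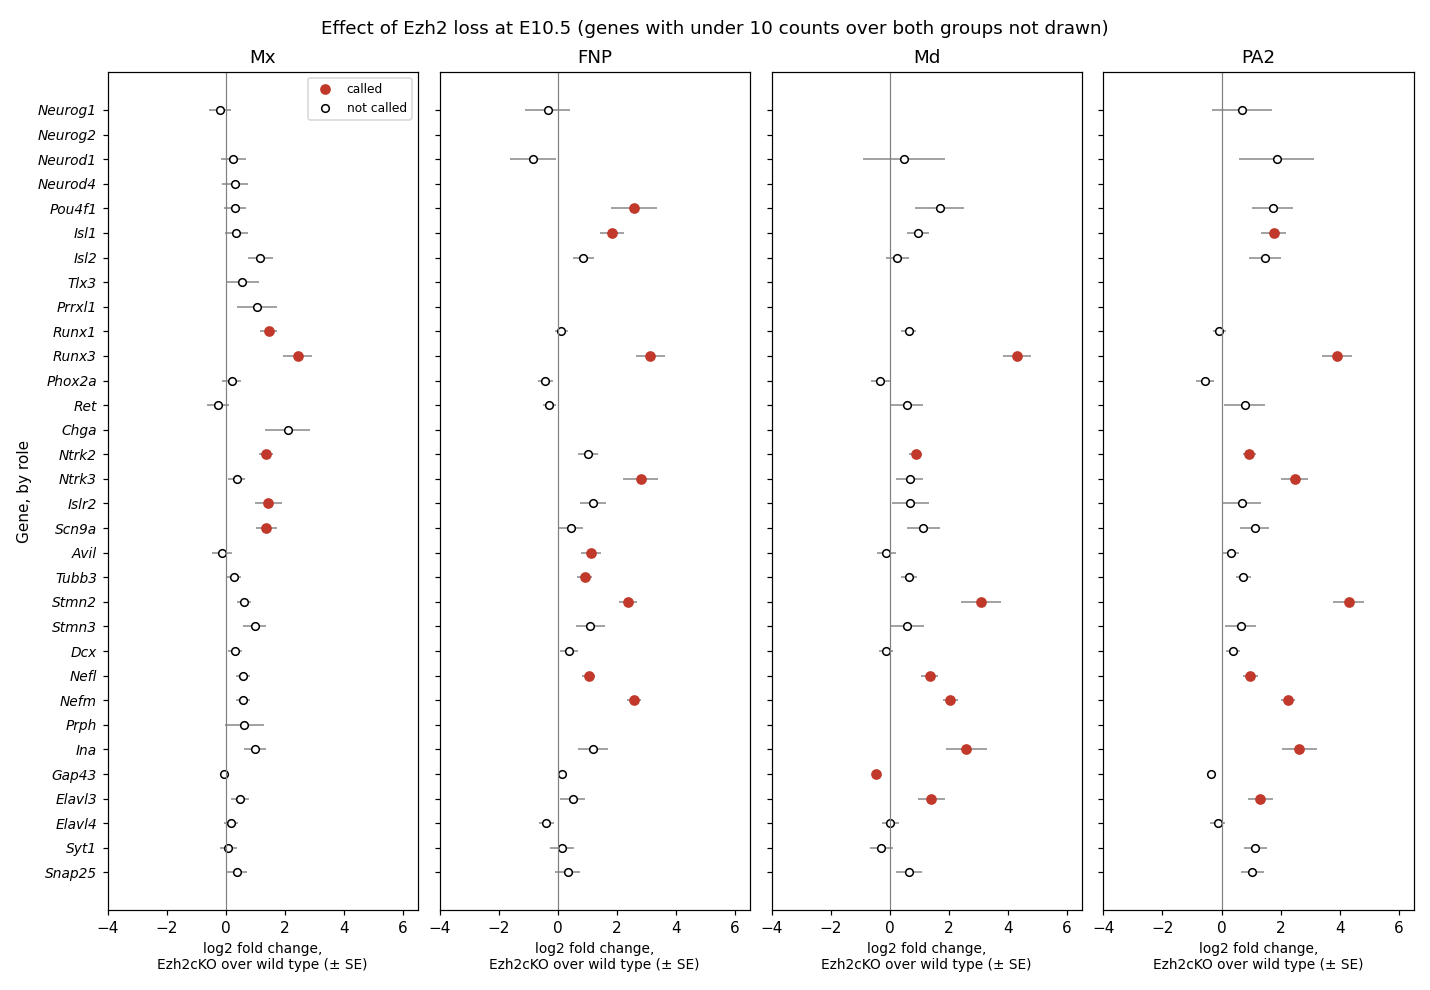
Log2 fold change, with its standard error, of each gene in Ezh2cKO over wild type at E10.5, with a panel each for Mx, FNP, Md and PA2. Red points are called, and genes with under 10 counts over both groups are not drawn. Runx3 is red in all 4 panels, and the red points of Stmn2, Nefl and Nefm are in FNP, Md and PA2.

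Mx was also set against the other 3 within Ezh2cKO, with no library shared with the wild-type comparison. There 25 genes were called higher and 0 lower by edgeR, with 1 lower at an unadjusted p under 0.05 and 0 by DESeq2, where 4.42% and 2.79% of all genes were called, and the median log2 fold change was 3.06. The 24 genes called higher in wild type were all among the 25, and Islr2 was the added gene. The count was 25 without any single one of the 12 Ezh2cKO libraries, replicate 3 of Mx included. Neurod1 was higher by a log2 fold change of 7.28 ± 0.38, Pou4f1 by 5.53 ± 0.29 and Stmn2 by 4.09 ± 0.18 (edgeR adjusted p = 2.71e-18, 2.38e-18 and 2.92e-20). Runx1 was not called here, with a log2 fold change of -0.14 ± 0.19. Its difference from the wild-type value, which is also the difference between the Ezh2 effect in Mx and the mean effect in the other 3, was 1.23 ± 0.32 (edgeR adjusted p = 0.0788). The adjusted p was 0.0163 by DESeq2, 0.00925 with no filter, 0.0437 with only the groups compared and 0.00512 without Mx Ezh2cKO replicate 3. Set against FNP, Md and PA2 singly, 24, 24 and 26 genes were called higher in Mx, where 9.78%, 3.79% and 3.93% of all genes were. Each time 22 genes were called higher, and the share of all genes called each time was not counted.

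**Figure D5:**
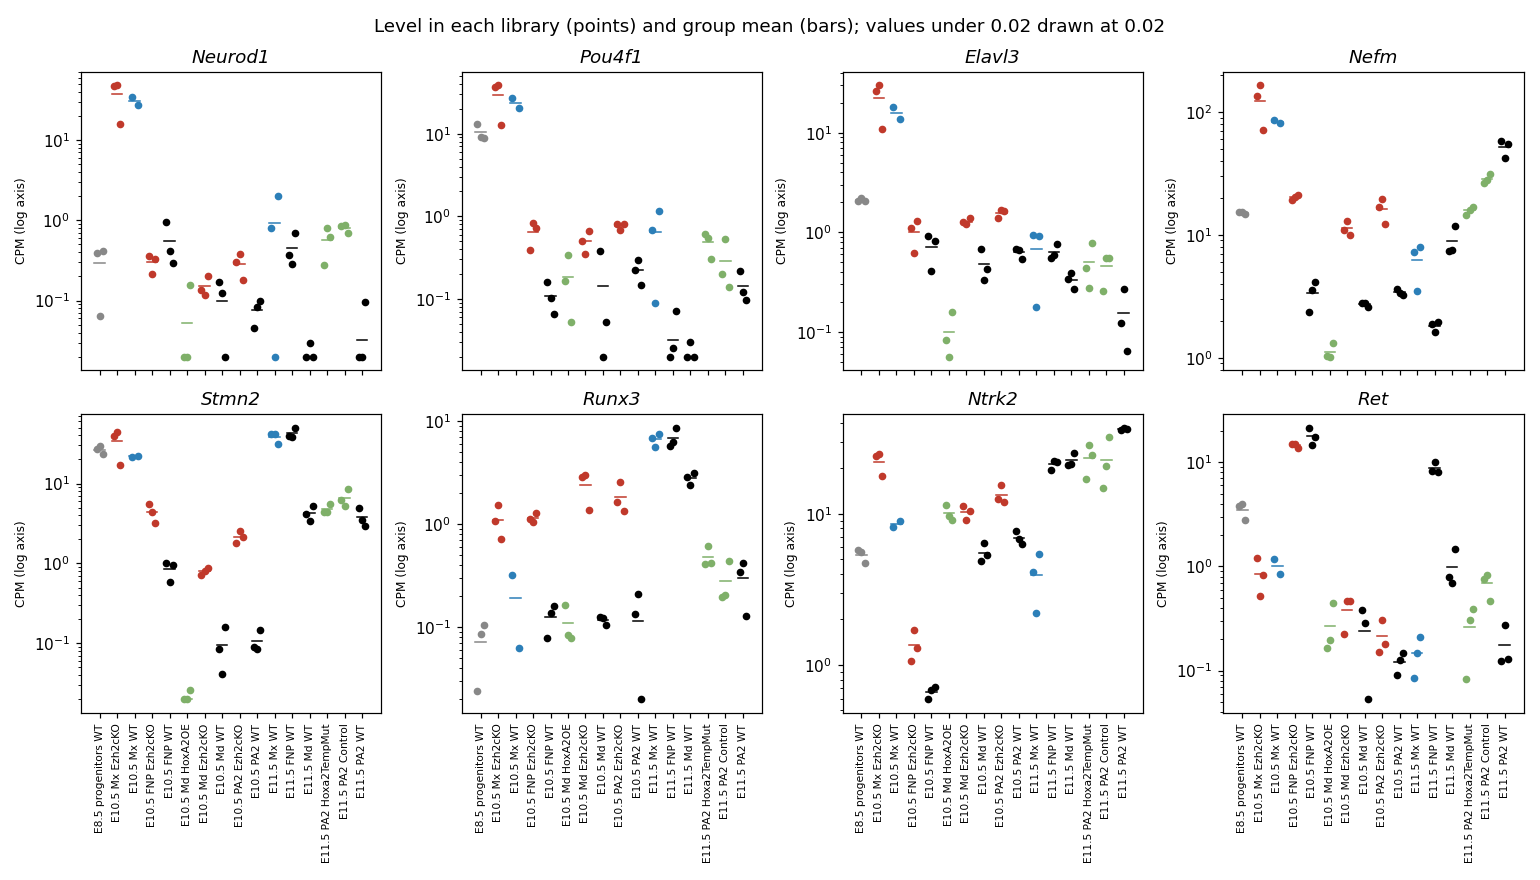
Level of 8 genes in every library (points) with the group mean (bars), as CPM on log axes, for the 16 groups in order of age, with values under 0.02 drawn at 0.02. Red marks Ezh2cKO, blue wild-type Mx, green the Hoxa2 genotypes with their Control, grey E8.5 and black the other wild-type groups. In Mx Ezh2cKO the lowest of the 3 points, replicate 3, lies below wild-type Mx for Neurod1, Pou4f1, Elavl3, Nefm and Stmn2.

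The Hoxa2 genotypes were compared in Md and PA2. Hoxa2, a homeobox gene that gives the second arch its identity, was at 92.8, 112 and 124 CPM in the HoxA2OE libraries of Md and 0.297, 0.248 and 0.265 CPM in wild-type Md. There 3 neuron genes were called higher and 5 lower, where 27.1% and 27.8% of all genes tested were called, so the share of neuron genes called was below that of all genes. The libraries differed widely, with TMM factors of 0.514, 0.775 and 0.765 in HoxA2OE and 1.04, 1.08 and 1.00 in wild-type Md. HoxA2OE replicate 1 had 45.91% mitochondrial counts. The number of neuron genes called was 8 without that replicate and 7 without mitochondrial genes. Phox2a was at 9.55, 6.11 and 6.83 CPM in HoxA2OE and 1.87, 2.23 and 1.70 CPM in wild type, a log2 fold change of 1.94 ± 0.28 (edgeR adjusted p = 1.95e-07). Runx1 and Ntrk2 also rose, with log2 fold changes of 1.11 ± 0.25 and 0.86 ± 0.22 (edgeR adjusted p = 0.000209 and 0.00123). Nefm fell to 1.03, 1.02 and 1.31 CPM in HoxA2OE, against 2.80, 2.77 and 2.60 CPM in wild type, and Tubb3 to 1.69, 0.736 and 1.31 CPM, against 3.06, 2.97 and 2.33 CPM, with log2 fold changes of -1.27 ± 0.31 and -1.20 ± 0.29 (edgeR adjusted p = 0.000705 and 0.000676). Stmn3, Elavl3 and Syt1, all under 1 CPM, were the other genes called lower, and all 3 calls depended on single libraries. Stmn3 lost its call without wild-type replicate 1 or HoxA2OE replicate 2 or 3, at adjusted p-values of 0.0601 to 0.124, Elavl3 without wild-type replicate 1, at 0.0537, and Syt1 without wild-type replicate 2 or 3 or HoxA2OE replicate 2 or 3, at adjusted p-values of 0.07 to 0.329. The erythroid list summed to 10.9 to 13.8 CPM in HoxA2OE and 286, 238 and 221 CPM in wild type, and its part was not tested.

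In PA2 at E11.5, Hoxa2 was at 195, 185 and 176 CPM in Hoxa2TempMut and 268, 268 and 269 CPM in Control. Of the 32 neuron genes 2 were called, both lower, and 0 higher by edgeR (1 at an unadjusted p under 0.05 and 0 by DESeq2), where 0.365% of all genes were called lower and 0.258% higher. Nefl was at 21.3, 19.2 and 22.2 CPM in Hoxa2TempMut and 42.6, 45.7 and 50.6 CPM in Control, a log2 fold change of -1.15 ± 0.20 (edgeR adjusted p = 0.000544). Nefm was at 14.6, 15.99 and 16.9 CPM in Hoxa2TempMut and 26.3, 28.1 and 31.1 CPM in Control, a log2 fold change of -0.85 ± 0.21 (edgeR adjusted p = 0.0371). The groups did not overlap for either gene, but leaving out any single library ended the call of Nefm, at adjusted p-values of 0.0541 to 0.212, and left a count of 1. Since Nefl and Nefm overlap on opposite strands and no strand was kept, the 2 calls may not be separate results. Control differed in turn from the wild-type PA2 libraries of the same age, with 8 neuron genes called higher and 4 lower, where 10.1% and 12.0% of all genes were called. Nefl in Control was below its wild-type level of 89.3, 70.4 and 94.01 CPM, with a log2 fold change of Control over wild type of -0.87 ± 0.20 (edgeR adjusted p = 0.00108). Isl1 was higher in Control, at 4.62, 3.88 and 2.13 CPM against 0.932, 0.121 and 0.803 CPM in wild type, a log2 fold change of 2.52 ± 0.50 (edgeR adjusted p = 0.000221). Markers of other cells differed as well. The central nervous system list summed to 1.30, 1.53 and 2.34 CPM in Hoxa2TempMut, 2.69, 4.77 and 3.24 CPM in Control and 10.3, 7.58 and 10.4 CPM in wild type, so that none of the 3 groups overlapped and they ran in the same order as for Nefl. The glia list summed to 20.2, 23.2 and 26.5 CPM in Hoxa2TempMut, 30.3, 28.99 and 32.2 CPM in Control and 21.3, 22.5 and 22.9 CPM in wild type. Their part in the neurofilament levels was not tested. What else separates the Control and wild-type embryos cannot be told apart from the genotype.

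The last comparison set the 4 wild-type subpopulations at E10.5 against the progenitors at E8.5. Of the 32 neuron genes, 5 were called higher and 17 lower at E10.5, where 32.1% and 36.3% of all genes tested were called. Neurog2 was at 0.0266 and 0.0315 CPM in Mx at E10.5 and listed at 0 in the other 9 libraries of that age, against 1.77, 1.51 and 2.49 CPM in the progenitors. Ina was at 9.89 and 10.9 CPM in Mx at E10.5, against 67.03, 50.7 and 50.6 CPM at E8.5, above every later library. The calls are on the mean of 4 subpopulations, and in 6 of the 22 called genes the E10.5 and E8.5 libraries did not overlap. Over all genes tested, the share without overlap was not counted. Stmn2, called lower, was at 21.4 and 22.2 CPM in Mx at E10.5 and at most 1.03 CPM in the other 9 libraries of that age, against 26.8, 29.1 and 23.1 CPM in the progenitors. Pou4f1, also called lower, was at 26.8 and 20.2 CPM in Mx at E10.5, above all 3 progenitor libraries at 13.1, 9.21 and 8.93 CPM, and at most 0.382 CPM in FNP, Md and PA2. Isl1 was higher at E10.5, by a log2 fold change of 1.81 ± 0.36, and Dcx by 1.38 ± 0.21 (edgeR adjusted p = 2.4e-05 and 1.92e-07). The central nervous system list summed to 0.0944 to 2.17 CPM in the E10.5 libraries and 251, 211 and 189.5 CPM in those of E8.5, and all 9 of its tested genes were lower at E10.5. The part of such cells in the E8.5 levels was not tested.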

How the data were processed

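Total RNA was sequenced as single reads of 50 bases from libraries that keep no strand, with 3 barcoded libraries in a pool, per the labels' protocols. The deposited table holds whole-number read counts per gene, made by the authors on GRCm38 (mm10), per the submitters' processing notes, which also name bcl2fastq 2.17. The sources used here name neither aligner nor counter. There are 22 repeated column names with identical values, and each was used once. Genes were kept by edgeR's filterByExpr (minimum count 10, minimum total 15), scaled by TMM, and tested with edgeR 4.0.16's quasi-likelihood test on 47 libraries of 16 groups in a group-means model with 31 residual degrees of freedom. All p-values were adjusted by Benjamini-Hochberg over 20560 genes, with a threshold of 0.05, and standard errors were taken from the F statistic. Libraries held 18.82 to 49.81 M counts (1 M is 1e+06), which limits precision for genes under 1 CPM. Alternatives were DESeq2 1.42.0 (its size factors, and its own test), leaving out mitochondrial genes, no filter, only the groups compared, a replicate block and each library left out in turn. Same-numbered libraries deviated together, with every correlation over 0.1, in 10 of 120 pairs of groups, among them FNP at E11.5 and E10.5 (lowest 0.111) and Mx and PA2 in Ezh2cKO (lowest 0.23), and there the block changed no call. The block was an effect of the replicate number shared by all groups. It could not take up pairing particular to a pair of groups, so whether such pairing matters was not tested. The rule for naming genes in full took, for each role, up to 4 called genes with the largest change at 1 CPM or more in the higher group. For comparisons of Mx or of Ezh2cKO it added Neurod1, Neurog1, Pou4f1, Isl1, Phox2a, Ret, Stmn2 and Tubb3. Genes named outside this rule were chosen after their values were seen. The 32 genes and the other lists were chosen with earlier results of these data known.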

Additional observations from a re-analysis of the deposited data

Results flagged for a closer look

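The change between E10.5 and E11.5 in Mx differed from the mean change in FNP, Md and PA2 by its own test for 16 neuron genes. On the log2 scale the difference was -3.38 for Isl1, -3.28 for Ret, -4.27 for Ntrk2, -6.01 for Ntrk3, -2.07 for Islr2 and -2.58 for Scn9a. Among cytoskeletal genes it was -1.87 for Tubb3, -4.61 for Stmn2, -3.05 for Dcx, -4.72 for Nefl, -5.32 for Nefm and -4.03 for Ina. It was -3.68 for Elavl3 and -2.40 for Elavl4, and 1.53 for Runx1, the gene whose increase was larger in Mx. For Prph the fitted value was -6.07, but groups at 0 enter it, so its size depends on the fit's prior count, and its call was lost without Mx E10.5 replicate 2 or PA2 E11.5 replicate 2, at adjusted p-values of 0.0694 and 1. The call of Islr2 was lost without Mx E10.5 replicate 1 or Mx E11.5 replicate 2 or 3. The effect of Ezh2 loss in Mx differed from the mean effect in the other 3 for Stmn2 by -2.63 and for Nefm by -1.72 on the log2 scale.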

How the results depend on the processing

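Counts of neuron genes called stayed within 1.5 times of the main count, except where stated, under DESeq2 size factors, without mitochondrial genes, with no filter on low counts, with only the groups compared, with a replicate block and by the DESeq2 Wald test. In no alternative did a called gene change direction. Ezh2 loss in Mx called 10 genes with no filter instead of 5, and Ezh2 loss in PA2 called 16 with only the groups compared instead of 9. The test of the Ezh2 effect in Mx against the mean of the other 3 called 4 with no filter and 4 by DESeq2 instead of 2. The cause of these moves was not tested. With each library left out in turn, the count lay between 2 and 14 for Ezh2 loss in Mx, between 5 and 7 for Ezh2 loss in Md, and at 1 for Hoxa2TempMut. Counts lay between 23 and 25 for Mx against the other 3 at E10.5, 12 and 16 at E11.5, and at 25 in Ezh2cKO. The labels do not say that a replicate number marks a shared animal or day. Of 120 pairs of groups, 10 had every correlation of same-numbered libraries over 0.1, and the median correlation was 0.00995. With the number as a replicate block, Ezh2 loss in Md called 7 genes instead of 8, and Elavl3 was the gene lost. Genes at under 1 CPM, such as Chga, Prrxl1, Prph and Neurog2, rest on few counts.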
